A study of Mus musculus with 15 samples.

Results

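The haemoglobin genes of mouse fetal liver progenitors were followed by RNA sequencing in wildtype and Rpl5 mutant embryos. Rpl5 codes for a ribosomal protein, part of the large subunit, and the series title relates the work to Diamond Blackfan anemia syndrome, a congenital anemia with too few red cell precursors. The genes were chosen by name: 10 were listed, the adult alpha genes Hba-a1 and Hba-a2, the zeta gene Hba-x, the adult beta genes Hbb-bs and Hbb-bt, the embryonic beta-like genes Hbb-y and Hbb-bh1, the theta genes Hbq1a and Hbq1b, and the alpha chaperone Ahsp. Of these, 9 were matched among the 55487 genes of the tables, and Ahsp is not analysed here. Hbq1a was below the low-count filter in every comparison, so 8 globin genes could be tested, singly and with near-identical copies added together.

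All 15 libraries were labelled fetal liver of strain 129S6/SvEvTac, and the series design gives the cells as erythroid progenitors taken at E12.5. Group 1 of mice held 3 wildtype and 3 mutant libraries, labelled as polyA RNA. Group 2 held 3 wildtype, 3 mutant and 3 low-yield mutant libraries, labelled as total RNA. The sample labels give the mutant genotype only as M or M-lowyield. A sheet deposited for group 2 writes its mutants as Rpl5plusSkax23Jus, while that of group 1 names no allele. What "low-yield" refers to is not stated, and neither is whether a library came from 1 embryo or several, so p-values measure the spread between these libraries, which may in part be technical. Because the kind of RNA differs between the groups of mice, levels were compared only within a group.

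Haemoglobin carries oxygen as a tetramer of alpha-like and beta-like chains, each built by its own gene cluster. In the mouse, primitive red cells formed in the yolk sac use the embryonic chains zeta, epsilon-y (Hbb-y) and beta-h1 (Hbb-bh1) besides adult alpha, while the definitive red cells that mature in the fetal liver use adult alpha and adult beta. Both kinds of cell are present in the embryo at this stage, and transcription of the adult genes rises steeply as an erythroid precursor matures.

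In GRCm38 the alpha-like genes lie on the plus strand of chromosome 11. Hba-x spans chr11:32276400-32278116, Hba-a1 spans chr11:32283511-32284465, Hbq1b spans chr11:32286965-32287784, Hba-a2 spans chr11:32296489-32297298 and Hbq1a spans chr11:32300069-32300873. The beta-like genes lie on the minus strand of chromosome 7, with Hbb-y at chr7:103851749-103853216, Hbb-bh1 at chr7:103841637-103843164, Hbb-bs at chr7:103826534-103828096 and Hbb-bt at chr7:103812524-103813996. Each is a protein-coding gene of 3 exons by the annotation used, GENCODE M21.

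The promoters of 5 of these genes are shown because, over both groups of mice, the adult genes Hba-a1, Hbb-bs and Hbb-bt were called lower in the mutants and the embryonic genes Hba-x and Hbb-y were not called. Hba-a2 and Hbq1b were called lower too and are not shown. Each sequence holds the 120 bases before the RefSeq start of the gene on its own strand, 5′ to 3′ (GRCm38.p6, chr11:32283552-32283671, chr7:103827929-103828048, chr7:103813924-103814043, chr11:32276480-32276599 and chr7:103853208-103853327, in the order shown). The gene spans above are those of GENCODE, whose starts differ from those of RefSeq. The windows of Hba-a1, Hbb-bs and Hba-x lie inside those spans, and those of Hbb-bt and Hbb-y overlap them in part. Capitals mark CACCC (the core of a site of the KLF family), CCAAT, GATA and the TATA-like letters ATAAA and ATATAA, searched on both strands.
Hba-a1: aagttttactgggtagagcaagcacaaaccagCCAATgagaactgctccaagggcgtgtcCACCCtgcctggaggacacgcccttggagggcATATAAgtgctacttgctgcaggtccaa
Hbb-bs: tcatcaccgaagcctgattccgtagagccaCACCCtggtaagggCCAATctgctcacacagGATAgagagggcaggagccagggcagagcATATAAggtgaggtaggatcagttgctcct
Hbb-bt: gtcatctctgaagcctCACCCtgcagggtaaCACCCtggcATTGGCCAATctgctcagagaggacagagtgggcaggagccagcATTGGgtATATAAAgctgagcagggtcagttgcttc
Hba-x: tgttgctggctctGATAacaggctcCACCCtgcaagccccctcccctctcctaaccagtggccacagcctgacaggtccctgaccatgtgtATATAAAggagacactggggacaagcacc
Hbb-y: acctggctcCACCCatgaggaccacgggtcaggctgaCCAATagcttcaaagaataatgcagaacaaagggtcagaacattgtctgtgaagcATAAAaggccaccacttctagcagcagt

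CACCC occurred in 6 of the 8 globin promoters matched in RefSeq (the 5 shown and Hba-a2) and in 31.71% of 32851 mouse promoter windows of the same length. CCAAT occurred in 5 of the 8, against 21.29% of all windows, and was not found in the window of Hba-x. GATA was found in Hbb-bs and Hba-x, against 29.53% of all windows. ATATAA was found in 5 of the 8, against 4.466%, and ATAAA in 3 of the 8, against 20.2%; where both are marked as ATATAAA the matches overlap. In Hbb-bt, CCAAT also matched on the reverse strand, where it reads ATTGG: once directly before the forward match and once just before the TATA-like letters. The windows of Hbb-bs and Hbb-bt were 74.59% identical. Those of Hba-a1 and Hba-a2 differed by 0 mismatches and 6 gap positions, since their starts are set 3 bases apart. The windows of Hbq1a and Hbq1b held none of these motifs, and Hbq1b was called lower over both groups of mice (log2 fold change -1.28). The marked motifs are matches of letters and not measured binding.

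The counts of near-identical copies need care. The coding sequences of Hba-a1 and Hba-a2 differed at 1 base of 429 and were 99.8% identical, and 48.3% of the 151-base windows of the Hba-a1 transcript, the length of 1 read, also occurred in Hba-a2. The adult beta pair was as close, with 1 coding base of 444 different and 50.6% of the windows of Hbb-bt found in Hbb-bs. The reference is that of strain C57BL/6J, whereas the animals were 129S6/SvEvTac. Hence the split between copies is uncertain, and their sums are given beside them. The beta globin genes of the strain itself were not examined here and may not be the pair of the reference, so values of Hbb-bs and Hbb-bt are those of reads assigned to the reference genes of these names.

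Total counts ranged from 24954324 to 58513669 per library, and the globin genes together took 0.147% to 1.14% of them. Rpl5 was lower in all 9 mutant libraries than in the wildtype libraries of the same group of mice, by 0.32 on the log2 scale in group 1, 0.46 in the group 2 mutants and 0.44 in the low-yield mutants (edgeR adjusted p = 0.00971, 0.0117 and 0.0087). Its call was lost for the group 2 mutants without wildtype replicate 3 (log2 fold change -0.37) or mutant replicate 1 (-0.42), and for the low-yield mutants without their replicate 2 (-0.35). All 12 erythroid markers were detected, with a summed level of 2745 to 6173 CPM (library counts scaled to a common library size by TMM). The 11 hepatocyte markers summed to 6.32 to 86.5 CPM and the 10 macrophage markers to 0.411 to 11.6 CPM, with Cd5l and Timd4 at 0 in every group. Granulocyte markers summed to 92.8 to 1329 CPM in group 1 and 14.2 to 298 CPM in group 2. In bulk samples, fewer cells of a type and less RNA per cell cannot be told apart.

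Of the libraries, 2 stood apart in embryonic globins. The third wildtype library of group 1 held 403 CPM of Hba-x, 1264 CPM of Hbb-y and 154 CPM of Hbb-bh1, above the other 5 libraries of group 1 for each gene. The third low-yield library held 309 CPM of Hba-x, 332 CPM of Hbb-y and 79.1 CPM of Hbb-bh1, above the other 8 of group 2. In comparisons that include 1 of them, fold changes, share differences and correlations of embryonic globins are therefore also given without it.

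Per kilobase of transcript, the adult genes other than Hbb-bt had the highest levels in wildtype cells. In group 1 wildtype cells Hbb-bs stood at 2695 ± 220 CPM per kb (SD, n = 3), Hba-a2 at 2004 ± 443 and Hba-a1 at 1890 ± 543. Next came Hbb-y at 869 ± 996, Hba-x at 212 ± 255, Hbb-bt at 147 ± 16.0 and Hbb-bh1 at 115 ± 120 CPM per kb, a run of 4 genes whose ranges over libraries overlapped. The ranges of Hbb-bs and Hba-a2, of Hba-a2 and Hba-a1, and of Hba-a1 and Hbb-y overlapped too. Hbq1b followed at 2.88 ± 0.12 CPM per kb, and Hbq1a was near 0. In group 2 wildtype cells the order was the same, with Hbb-bs at 6454 ± 1992, Hba-a2 at 3212 ± 1409, Hba-a1 at 3093 ± 1425, Hbb-y at 297 ± 68.2, Hba-x at 175 ± 43.7, Hbb-bt at 136 ± 66.3, Hbb-bh1 at 32.3 ± 5.57 and Hbq1b at 3.62 ± 1.78 CPM per kb. There the ranges of Hbb-bs and Hba-a2, of Hba-a2 and Hba-a1, and of Hba-x and Hbb-bt overlapped, and those of the other neighbours did not. The order of Hba-a2 and Hba-a1 rests on their annotated transcript lengths, 554 and 699 bases. In CPM, Hba-a1 had the higher mean, at 1321 against 1110 in group 1 wildtype and 2162 against 1779 in group 2 wildtype.

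**Figure D1:**
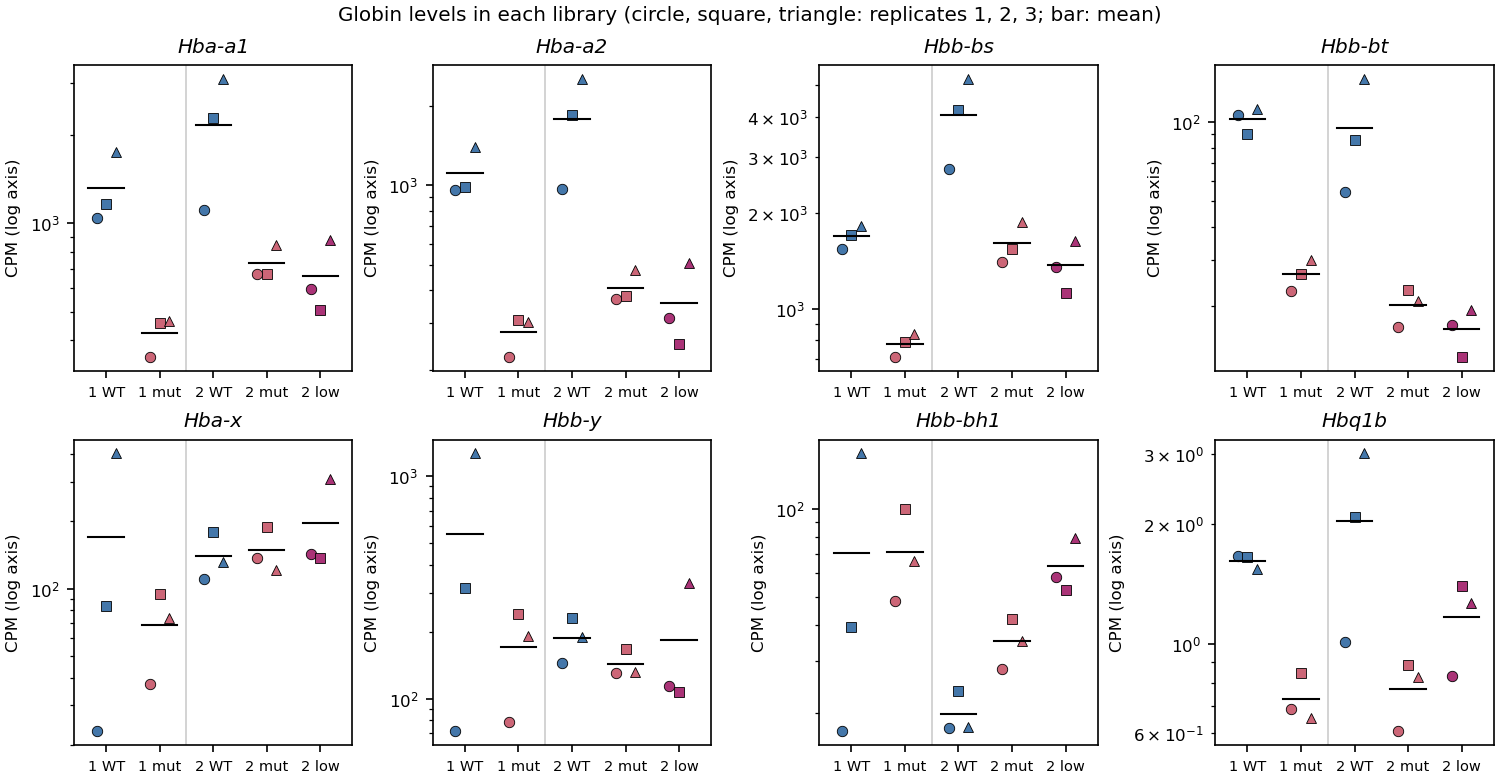
Level of 8 globin genes in each library, in CPM on a log axis, for group 1 wildtype (1 WT) and mutant (1 mut) and group 2 wildtype (2 WT), mutant (2 mut) and low-yield mutant (2 low); circles, squares and triangles are replicates 1, 2 and 3, and bars are group means. Adult alpha and beta points of mutants lie below all wildtype points of their group, while Hbb-bh1 in group 2 lies above them.

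Adult alpha globin RNA was called lower in group 1 mutants and in low-yield mutants, for each copy and their sum, whereas in the group 2 mutants Hba-a2 alone was called and Hba-a1 and the sum were not. Hba-a1 read 1043, 1166 and 1754 CPM in the 3 wildtype libraries of group 1 and 349.9, 458 and 464 CPM in the 3 mutants. All mutant values lay below all wildtype values, 3.12-fold lower on average. The log2 fold change was -1.64 (SE 0.25, edgeR's quasi-likelihood test with Benjamini-Hochberg adjustment, adjusted p = 0.0213). A gene is called here when this adjusted p is at most 0.05. Without wildtype replicate 2 or mutant replicates 1, 2 or 3 the call was lost (log2 fold changes -1.72, -1.52, -1.70 and -1.71).

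Hba-a2 was lowered further than its copy in each comparison by fold change, though that difference was not tested. In group 1 it read 957, 981 and 1393 CPM in wildtype and 223, 309 and 304 CPM in mutant libraries. The groups did not overlap, and the level was 3.99-fold lower (log2 fold change -1.99, SE 0.22, edgeR adjusted p = 0.0059), a call kept without any 1 library. The sum of both copies fell from 2431 ± 624 to 703 ± 112 CPM (SD, n = 3; log2 fold change -1.79, SE 0.23, edgeR adjusted p = 0.0117).

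In group 2 the wildtype libraries differed more among themselves. Hba-a1 read 1112, 2281 and 3093 CPM in wildtype, 674, 673 and 841 CPM in mutants and 597, 506 and 874 CPM in low-yield mutant libraries. Neither mutant group overlapped the wildtype. The mutants had a log2 fold change of -1.57 (SE 0.40), which was not called (edgeR adjusted p = 0.0803), although DESeq2 and voom called it, as did the fit without wildtype replicate 1 (-1.87, edgeR adjusted p = 0.0135; 0.0135 to 0.248 over the fits that left out 1 library). The low-yield mutants were called at -1.71 (SE 0.40, edgeR adjusted p = 0.0412), a call lost without wildtype replicates 2 (-1.67) or 3 (-1.36) or low-yield replicates 1 (-1.64) or 2 (-1.55).

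Hba-a2 in group 2 read 966, 1850 and 2522 CPM in wildtype, 369.6, 380.3 and 477 CPM in mutants and 314, 251 and 506 CPM in low-yield libraries. Every mutant value was under every wildtype value. The log2 fold change was -2.12 (SE 0.42, edgeR adjusted p = 0.0385) in the mutants and -2.32 (SE 0.42, edgeR adjusted p = 0.0181) in the low-yield mutants. The mutant call was lost without wildtype replicates 2 (-2.09) or 3 (-1.78) or mutant replicates 1 (-2.05), 2 (-2.07) or 3 (-2.25), and the low-yield call without wildtype replicate 2 (-2.29) or low-yield replicates 1 (-2.23) or 2 (-2.11). For the sum of the alpha copies the log2 fold change was -1.79 (SE 0.41) in the mutants, which was not called (edgeR adjusted p = 0.0575, and 0.0401 with the replicate number as a block), and -1.96 (SE 0.41, edgeR adjusted p = 0.0277) in the low-yield mutants. The latter call was lost without wildtype replicates 2 (-1.92) or 3 (-1.61) or low-yield replicates 1 (-1.88) or 2 (-1.78), and the mutant sum was called without wildtype replicate 1 (-2.09).

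Adult beta globin RNA fell in every comparison with wildtype. Hbb-bs, the more abundant beta copy, read 1546, 1711 and 1820 CPM in group 1 wildtype libraries and 709.96, 793 and 841 CPM in mutants. The groups did not overlap, and the spread within each was small. The level was 2.17-fold lower (log2 fold change -1.12, SE 0.08, edgeR adjusted p = 1.12e-05), a call kept without any 1 library.

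In group 2, Hbb-bs read 2742, 4185 and 5233 CPM in wildtype, 1409.9, 1548 and 1875 CPM in mutants and 1354, 1128 and 1637 CPM in low-yield libraries. Both mutant groups lay wholly below the wildtype. The log2 fold changes were -1.33 (SE 0.25, edgeR adjusted p = 0.0228) and -1.56 (SE 0.25, edgeR adjusted p = 0.00713). For the mutants the call was lost without wildtype replicate 2 (-1.31) or mutant replicates 1 (-1.24) or 2 (-1.30), while the low-yield call was kept without any 1 library.

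Hbb-bt, the minor adult beta copy, showed a larger fold change than Hbb-bs in each of these comparisons, though the difference between the copies was not tested. It read 107, 90.8 and 112 CPM in group 1 wildtype and 22.9, 26.4 and 29.8 CPM in mutant libraries, 3.92-fold lower without overlap (log2 fold change -1.97, SE 0.11, edgeR adjusted p = 5.46e-06), and this call was kept without any 1 library. Group 2 values of Hbb-bt were 54.4, 85.8 and 146 CPM in wildtype, 16.6, 23.0 and 20.9 CPM in mutants and 16.9, 12.8 and 19.2 CPM in low-yield libraries. The lowest wildtype value exceeded the highest mutant value more than 2-fold. The log2 fold change was -2.25 (SE 0.38, edgeR adjusted p = 0.0187) in the mutants and -2.55 (SE 0.38, edgeR adjusted p = 0.00681) in the low-yield mutants. The mutant call was lost without wildtype replicate 2 (-2.33) or mutant replicates 1 (-2.12), 2 (-2.35) or 3 (-2.28).

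Summed, the adult beta copies fell from 1796 ± 140 to 807 ± 69.6 CPM in group 1 (SD, n = 3; log2 fold change -1.15, SE 0.08, edgeR adjusted p = 8.66e-06). In group 2 they stood at 4149 ± 1296 CPM in wildtype, 1631 ± 241 CPM in mutants and 1389 ± 258 CPM in low-yield libraries. The log2 fold change was -1.35 (SE 0.25, edgeR adjusted p = 0.0227) in the mutants, a call lost without wildtype replicate 2 (-1.33) or mutant replicates 1 (-1.25) or 2 (-1.32). In the low-yield mutants it was -1.58 (SE 0.25, edgeR adjusted p = 0.00706).

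The theta genes Hbq1a and Hbq1b, members of the alpha cluster whose products are not known chains of the major haemoglobins, were nearly silent. Hbq1a had 4 counts in 1 wildtype library of group 1, 1 count in 1 wildtype library of group 2 and 0 counts in the other 13, where the limit that a count of 0 allows is 3 counts, 0.0514 to 0.116 CPM. Hbq1b, whose library counts ran from 18 to 135, read 1.66, 1.65 and 1.54 CPM in group 1 wildtype and 0.688, 0.846 and 0.652 CPM in mutant libraries. The groups did not overlap (log2 fold change -1.15, SE 0.34, edgeR adjusted p = 0.0473), but the call was lost whichever library was left out, with fold changes of -1.27 to -1.07 over wildtype replicates 1, 2 and 3 and mutant replicates 1, 2 and 3.

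In group 2, Hbq1b read 1.01, 2.08 and 3.01 CPM in wildtype, 0.605, 0.888 and 0.826 CPM in mutants and 0.831, 1.40 and 1.27 CPM in low-yield libraries. Mutant and wildtype values did not overlap, but low-yield values did. Neither difference was called (log2 fold changes -1.45 and -0.85, SE 0.45 and 0.40, edgeR adjusted p = 0.0711 and 0.19). The mutant difference was called with the replicate number as a block (edgeR adjusted p = 0.0333), and both were called without wildtype replicate 1 (-1.73 and -1.13).

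Neither Hba-x nor Hbb-y was called in any comparison with all libraries, and whether their fold changes differ from those of the adult genes was not tested. Hba-x, the zeta chain of embryonic haemoglobin, read 23.0, 83.7 and 403 CPM in group 1 wildtype and 37.6, 94.6 and 74.2 CPM in mutant libraries. The mutant values lay within the wildtype range. The log2 fold change of -1.31 (SE 1.18, edgeR adjusted p = 0.558) became 0.37 (edgeR adjusted p = 0.834) without wildtype replicate 3. Group 2 values of Hba-x were 111, 179 and 132 CPM in wildtype, 137, 188 and 121 CPM in mutants and 142, 138 and 309 CPM in low-yield libraries, with overlap throughout. Log2 fold changes were 0.08 (SE 0.38, edgeR adjusted p = 0.938) and 0.48 (SE 0.38, edgeR adjusted p = 0.494), and the latter was -0.0041 without low-yield replicate 3.

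Hbb-y, the epsilon-type chain and the more abundant embryonic beta-like gene, read 71.5, 315 and 1264 CPM in group 1 wildtype and 78.9, 240.2 and 192 CPM in mutant libraries. Again the mutants fell inside the wildtype range (log2 fold change -1.69, SE 1.21, edgeR adjusted p = 0.455, and -0.18 without wildtype replicate 3). Group 2 wildtype libraries read 144, 231 and 189 CPM, mutants 131, 168 and 132 CPM, and low-yield mutants 114, 107 and 332 CPM. The first 2 low-yield libraries were below the wildtype range and the third above it. The log2 fold changes were -0.39 (SE 0.48, edgeR adjusted p = 0.728) and -0.03 (SE 0.47, edgeR adjusted p = 0.981). Without low-yield replicate 3 the latter was -0.77 and called (edgeR adjusted p = 0.0123, 0.0123 to 0.989 over the fits that left out 1 library), and without wildtype replicate 2 or low-yield replicates 1 or 2 it was 0.15, 0.23 and 0.25.

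Hbb-bh1, the second embryonic beta-like chain, was called higher in both group 2 comparisons with wildtype, but not in group 1 or over both groups of mice. Its group 2 values were 17.8, 23.7 and 17.9 CPM in wildtype, 28.3, 41.9 and 35.2 CPM in mutants and 58.4, 52.6 and 79.1 CPM in low-yield libraries. The 3 groups were stacked without overlap. The mutants were 1.77-fold higher (log2 fold change 0.83, SE 0.18, edgeR adjusted p = 0.0209) and the low-yield mutants 3.21-fold higher (1.68, SE 0.18, edgeR adjusted p = 0.000193). For the mutants the call was lost without wildtype replicates 1 (0.77) or 3 (0.75) or mutant replicates 2 (0.69) or 3 (0.82). The low-yield call was kept without any 1 library and was 1.49 without low-yield replicate 3.

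In group 1, Hbb-bh1 read 17.3, 39.4 and 154 CPM in wildtype and 48.3, 99.3 and 66.1 CPM in mutant libraries. All mutants exceeded the first 2 wildtype libraries, and the third wildtype library exceeded all mutants. The log2 fold change was 0.01 (SE 0.93, edgeR adjusted p = 0.995). Without wildtype replicate 3 it was 1.33 (edgeR adjusted p = 0.295), and without wildtype replicates 1 or 2 or mutant replicate 2 it was -0.43, -0.27 and -0.30.

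**Figure D2:**
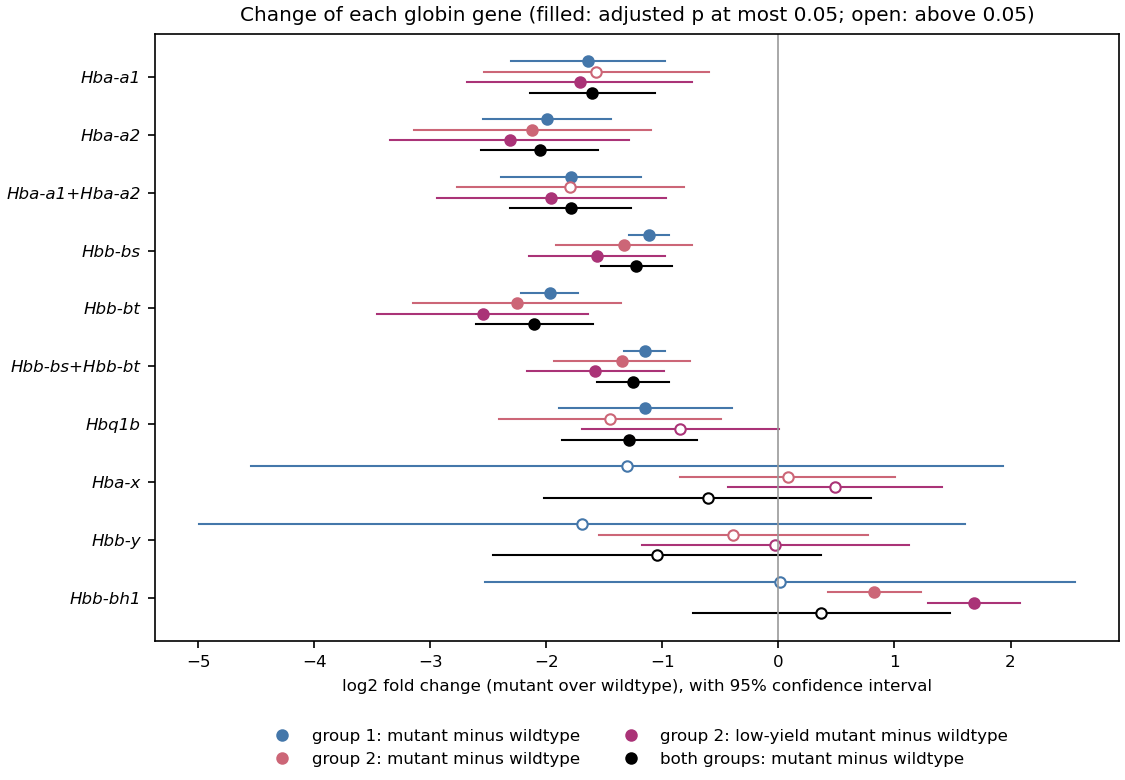
Log2 fold change of each globin gene and of the summed copies for the 4 comparisons of mutant with wildtype libraries, with 95% confidence intervals; filled points have an adjusted p of at most 0.05 in edgeR's test. The adult alpha and beta genes lie between -2.55 and -1.12, whereas Hba-x, Hbb-y and Hbb-bh1 have wide intervals in group 1 and Hbb-bh1 lies above 0 in group 2.

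By counts, 5 of the 8 tested globin genes were called in group 1, 5 lower and 0 higher, where 6.78% of all 14048 tested genes were called lower and 5.79% higher. In the group 2 mutants 4 of 8 were called, 3 lower and 1 higher, against 2.95% lower and 3.32% higher among 15024 genes. In the low-yield mutants 5 of 8 were called, 4 lower and 1 higher, against 5.86% lower and 6.68% higher. With near-identical copies summed, 3 of 6 features were called in group 1, 3 lower and 0 higher. In the group 2 mutants 2 of 6 were called, 1 lower and 1 higher, and in the low-yield mutants 3 of 6, 2 lower and 1 higher. Calls lower then made up 6.76%, 2.94% and 5.86% of all features tested in these comparisons. The median log2 fold change of the 8 genes was -1.47, -1.39 and -1.20, and that of all tested genes was 0.01, -0.01 and -0.0035. Leaving out 1 library moved the counts of the 8 genes to 3 without group 1 wildtype replicate 2 or mutant replicates 1, 2 or 3. For the group 2 mutants they moved to 1 without wildtype replicate 2 or mutant replicates 1 or 3, 2 without wildtype replicate 3 and 0 without mutant replicate 2, and for the low-yield mutants to 3 without wildtype replicate 2 or low-yield replicates 1 or 2. The calls over all genes moved as well in fits that left out 1 library. In group 1, where 1766 were called with all libraries, dropping wildtype replicates 1, 2 and 3 left 1051, 836 and 1168, and dropping mutant replicate 3 left 753. For the group 2 mutants they were 425 and 480 without wildtype replicates 2 and 3, 439 and 433 without mutant replicates 1 and 3 and 790 without mutant replicate 2, against 942. For the low-yield mutants they were 1074 and 1153 without wildtype replicates 2 and 3 and 902 and 900 without low-yield replicates 1 and 2, against 1884. Both comparisons of group 2 share their wildtype libraries.

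Globin genes whose compared libraries did not overlap numbered 5 in group 1, 5 lower and 0 higher, where 16.6% of tested genes were lower and 15% higher without overlap. In the group 2 mutants they numbered 6, 5 lower and 1 higher, against 11.8% lower and 11.5% higher. In the low-yield mutants they numbered 5, 4 lower and 1 higher, against 14.6% and 15.3%.

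Some marker lists of other cells differed between the compared libraries too, and not the same lists in each comparison. Beside the counts below stand the calls over all tested genes: 5.79% higher and 6.78% lower in group 1, 3.32% and 2.95% in the group 2 mutants, and 6.68% and 5.86% in the low-yield mutants. Summed hepatocyte markers were 34.9 to 65.7 CPM in group 1 wildtype and 6.32 to 22.3 CPM in mutant libraries, and 3 of the 10 tested were called lower. In group 2 they overlapped, at 11.4 to 86.5 CPM in wildtype, 9.27 to 52.0 CPM in mutants and 46.9 to 51.8 CPM in low-yield libraries, and 0 of 11 were called in either comparison. Summed granulocyte markers were 14.2 to 28.1 CPM in group 2 wildtype, 100.2 to 202 CPM in mutants and 144 to 298 CPM in low-yield libraries, with 7 and 9 of the 9 tested called higher. In group 1 they overlapped, at 92.8 to 697 CPM in wildtype and 225 to 1329 CPM in mutant libraries, with 0 of 10 called. Summed megakaryocyte markers were 35.2 to 39.6 CPM in group 2 wildtype, 33.3 to 39.8 CPM in mutants and 49.6 to 50.9 CPM in low-yield libraries, where 3 of 6 were called higher and 1 lower, against 1 higher and 0 lower in the mutants. In group 1 the sums overlapped, with 0 of 7 called higher and 1 lower. Of the 3 macrophage markers tested, 0 were called in these 3 comparisons.

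Against the same shares of all genes, erythroid progenitor markers, which include Klf1 and the late genes Slc4a1 and Alas2, were called lower for 8 of 12 in group 1, 4 of 12 in the group 2 mutants and 5 of 12 in the low-yield mutants, with 1 called higher in each. Early progenitor markers had fold changes above 0 for 8 of the 8 tested in group 1, where 0 were called, and for 7 of 7 in both group 2 comparisons, where 1 was called higher in the mutants and 2 in the low-yield mutants. Their sums overlapped between wildtype and mutants, at 338 to 461 and 356 to 469 CPM in group 1, and 278 to 382, 356 to 404 and 351 to 450.2 CPM in the wildtype, mutants and low-yield mutants of group 2. The part of these marker differences in the globin results was not tested.

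Over both groups of mice, with the group as a block and 12 libraries, 5 of 8 globin genes were called, 5 lower and 0 higher, where 9.8% of 15954 tested genes were called lower and 9.8% higher. Hba-a1 had a log2 fold change of -1.60 (SE 0.24, edgeR adjusted p = 0.00133), Hba-a2 of -2.06 (SE 0.22, edgeR adjusted p = 0.000183), Hbb-bs of -1.22 (SE 0.14, edgeR adjusted p = 0.000123), Hbb-bt of -2.11 (SE 0.22, edgeR adjusted p = 0.000134) and Hbq1b of -1.28 (SE 0.28, edgeR adjusted p = 0.00275). For the sums, adult alpha stood at -1.79 (SE 0.23, edgeR adjusted p = 0.000541) and adult beta at -1.25 (SE 0.14, edgeR adjusted p = 0.000108), where 9.75% of features were called lower. The 5 calls of single genes were kept in each of 12 fits that left out 1 library. The embryonic genes were not called: Hba-x stood at -0.61 (SE 0.62), Hbb-y at -1.05 (SE 0.63) and Hbb-bh1 at 0.37 (SE 0.49), with edgeR adjusted p = 0.565, 0.296 and 0.666. Without group 1 wildtype replicate 3, Hbb-bh1 was called higher at 1.07 (edgeR adjusted p = 0.0302, 0.0302 to 0.852 over the 12 fits), Hba-x turned to 0.20 and Hbb-y moved to -0.30.

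The effect of genotype was not called as different between the groups of mice for any globin gene. The interaction test called 0 of 8 globin genes and 3 of 15954 genes in all (0.0188%), and DESeq2 and voom likewise called 0 of the globin genes. For the adult genes and Hbq1b, the difference between the effects (group 2 minus group 1) was -0.29 to 0.09 on the log2 scale. For Hba-x, Hbb-y and Hbb-bh1 it was 1.39, 1.31 and 0.82 with SE 1.20, 1.21 and 1.00. These 3 values rested on group 1 wildtype replicate 3, without which they turned to -0.26, -0.18 and -0.47 (SE 0.76, 0.86 and 0.54). The unadjusted p was above 0.05 for each of the 8.

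Low-yield mutants were next compared with the other mutants of group 2. No globin gene was called, and 0 of the 15024 tested genes passed in edgeR (0%; 480 had an unadjusted p under 0.05; DESeq2 called 6 and voom 10). Without low-yield replicate 3, which stands apart in embryonic globins, edgeR called 22 of 15542 genes, 4 higher and 18 lower, and leaving out any of the other 5 libraries gave 0. Hbb-bh1 was the 1 globin gene without overlap, 1.81-fold higher in low-yield libraries (log2 fold change 0.86, SE 0.18, unadjusted p = 0.000363, edgeR adjusted p near 1), where 4.07% of genes were higher and 4.15% lower without overlap. DESeq2 and voom each called it (adjusted p = 0.00585 and 0.0498). Without low-yield replicate 3 the difference was 0.66 (edgeR adjusted p = 0.186). For the adult alpha sum the log2 difference was -0.16 with a 95% interval from -1.11 to 0.79, and for the adult beta sum it was -0.23 with an interval from -0.81 to 0.35.

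A set of 4 ratios between chains, each computed per kilobase of transcript in every library, described the balance within the globin family. They were compared by exact permutation tests over libraries. With 3 libraries against 3 such an exact test cannot go below p = 0.1, whereas an exact permutation within both groups of mice allows p = 0.005. Since same-numbered libraries of group 1 deviated together, an exact sign-flip test over pairs of same-numbered libraries was run as well; with 6 pairs over both groups it cannot go below p = 0.0312, and with 3 pairs not below 0.25. Near-identical copies were added before a ratio was taken.

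The make-up of the embryonic beta-like RNA did not overlap between wildtype and mutant libraries in either group of mice. Hbb-y made up 80.0%, 88.5% and 88.8% of the embryonic beta-like RNA in group 1 wildtype libraries and 61.3%, 70.1% and 73.8% in mutants. Group 2 shares were 88.7%, 90.4% and 91.1% in wildtype libraries, 81.8%, 79.5% and 78.4% in mutants and 65.3%, 66.4% and 80.3% in low-yield libraries. No mutant library reached the lowest wildtype library of its group, including those with the highest embryonic globin. Over both groups the difference of mutants from wildtype was -13.8 percentage points (exact stratified permutation test, two-sided, p = 0.005, the smallest possible, adjusted over 4 ratios p = 0.01). With the libraries paired, the exact sign-flip p was 0.0312, its smallest, and 0.0625 adjusted over 4 ratios. A paired test this small could pass 0.05 after adjustment only with 3 or more ratios at its smallest p. Its pairs include those of group 2, where the deviations of same-numbered mutant and wildtype libraries had r from 0.024 to 0.241. The difference was -15.2 to -12.0 points when 1 library was left out, and -13.0 points without group 1 wildtype replicate 3. Within group 1, the group 2 mutants and the low-yield mutants it was -17.4, -10.1 and -19.4 points (exact permutation p = 0.1 each, the smallest possible; paired exact sign-flip p = 0.25 each). It was -15.9 points in group 1 without wildtype replicate 3 and -24.2 points for the low-yield mutants without their replicate 3.

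The ratio of adult alpha to adult beta lay lower in the mutants than in the wildtype of each group of mice, low-yield mutants aside. In group 1 its log2 value was 0.30, 0.27 and 0.72 in wildtype and -0.36, -0.10 and -0.19 in mutant libraries. Group 2 values were -0.41, -0.04 and 0.07 in wildtype libraries, -0.48, -0.60 and -0.55 in mutants and -0.62, -0.62 and -0.28 in low-yield libraries. The wildtype and mutant libraries did not overlap in either group of mice, while the third low-yield library lay inside the wildtype range. Without division by length they did not overlap either. The beta term holds reads assigned to the reference genes Hbb-bs and Hbb-bt, which may not be the pair of the strain itself. Over both groups the log2 ratio was 0.15 in wildtype and -0.38 in mutants, a difference of -0.53 (exact stratified permutation test, two-sided, p = 0.005, adjusted over 4 ratios p = 0.01). Paired, the exact sign-flip p was 0.0312 and 0.0625 adjusted over 4 ratios. This difference was -0.60 to -0.46 when 1 library was left out.

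The zeta share of alpha-like RNA had its clearest separation in group 2. Hba-x made up 3.99%, 3.27% and 1.80% in wildtype libraries, 9.51%, 12.47% and 6.82% in mutants and 11.1%, 12.7% and 15.1% in low-yield libraries. Neither mutant group overlapped the wildtype. In group 1 it made up 0.884%, 2.95% and 9.11% in wildtype and 4.94%, 8.88% and 7.10% in mutant libraries, which overlapped. Over both groups the mutants were 4.62 points higher (exact stratified permutation p = 0.035, adjusted over 4 ratios p = 0.0467). With same-numbered libraries paired the exact sign-flip test gave p = 0.0625 (0.0833 adjusted over 4 ratios), and the unadjusted p exceeded 0.05 without group 1 wildtype replicates 1 (3.76 points) or 2 (4.28), group 1 mutant replicate 2 (4.14), or group 2 wildtype replicates 2 (4.68) or 3 (4.31). Without group 1 wildtype replicate 3 the difference was 5.82 points. Adult alpha is in the denominator of this share. In the group 2 mutants the log2 fold change was 0.08 for Hba-x, with overlap, and -1.79 for the adult alpha sum, which was not called. In the low-yield mutants they were 0.48, with overlap, and -1.96. The higher share is therefore not a separate measure of more Hba-x RNA.

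The embryonic share of all beta-like RNA ranged widely. It was 5.13%, 16.4% and 42.4% in group 1 wildtype and 14.9%, 29.4% and 22.9% in mutant libraries. Group 2 shares were 5.47%, 5.61% and 3.70% in wildtype libraries, 10.05%, 11.8% and 8.12% in mutants and 11.2%, 12.3% and 19.9% in low-yield libraries. Both mutant groups of group 2 lay above their wildtype, and the groups of group 1 overlapped. Adult beta is in the denominator of this share too. The adult beta sum was called lower in group 1, the group 2 mutants and the low-yield mutants (log2 fold changes -1.15, -1.35 and -1.58). A higher share is thus not by itself more embryonic RNA. Over both groups the difference was 3.08 points (exact stratified permutation p = 0.63), with 8.34 points (p = 0.025 in the same permutation test) without group 1 wildtype replicate 3 and -0.97 points without group 1 wildtype replicate 1.

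**Figure D3:**
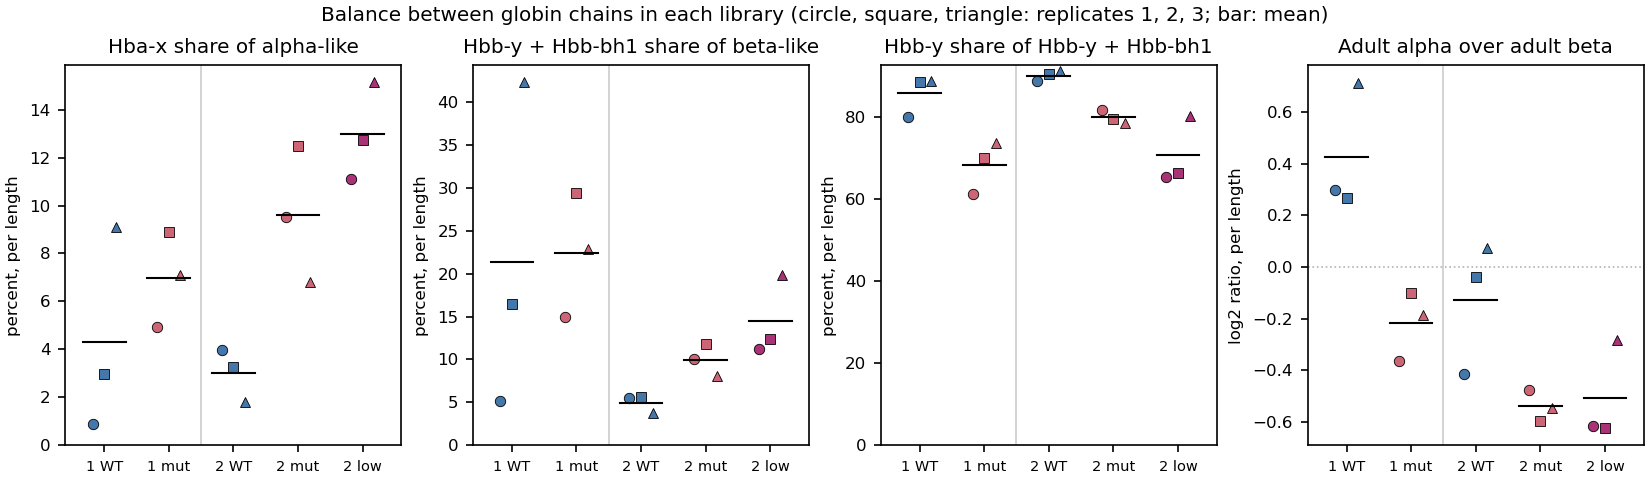
The 4 ratios between globin chains in each library, per kilobase of transcript: 3 shares in percent and the log2 ratio of adult alpha to adult beta, with groups labelled as in the plot of levels, symbols for replicates 1, 2 and 3 and bars for means. The share of Hbb-y among embryonic beta-like RNA is at most 73.8% in group 1 mutants against 80.0% or more in their wildtype, and at most 81.8% in the mutants of group 2 against 88.7% or more.

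The split of counts between near-identical adult copies also differed by genotype, a description chosen after the values were seen and so without a test. Hba-a2 received 44.3% to 47.8% of adult alpha counts in the 6 wildtype libraries and 33.2% to 40.3% in the 9 mutant ones. Hbb-bt received 5.04% to 6.48% of adult beta counts in group 1 wildtype and 3.12% to 3.42% in mutant libraries. In group 2 the Hbb-bt share was 1.95% to 2.72% in wildtype, 1.10% to 1.46% in mutant and 1.12% to 1.23% in low-yield libraries. No mutant library overlapped the wildtype libraries of its group for either pair. How the reads shared by both copies were divided affects these shares, and its part in them was not tested.

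**Figure D4:**
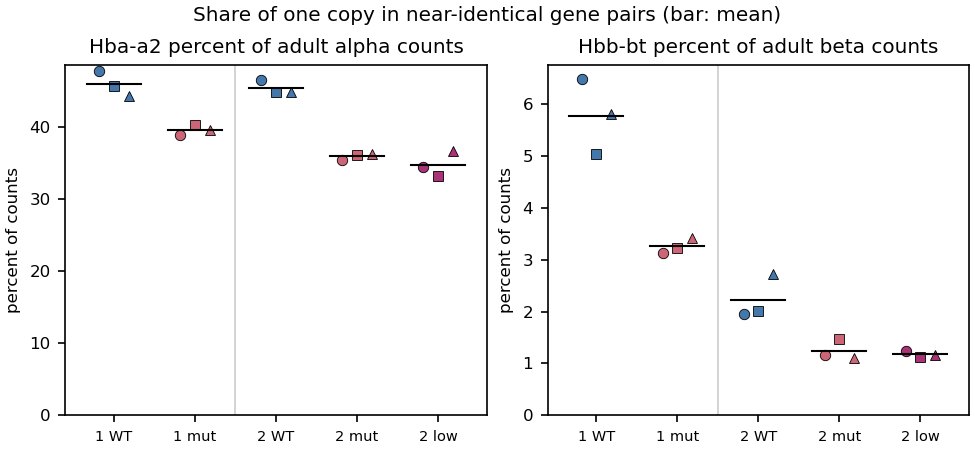
Percent of adult alpha counts assigned to Hba-a2 (left) and of adult beta counts assigned to Hbb-bt (right) in each library, with groups labelled as in the plot of levels and bars for group means. The 9 mutant libraries lie between 33.2% and 40.3% on the left, below all wildtype libraries.

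Across libraries, the adult genes moved together. Over the 15 libraries, with log2 CPM centred within each group of mice, Pearson's r among Hba-a1, Hba-a2, Hbb-bs and Hbb-bt was 0.965 to 0.992. Hba-x and Hbb-y were correlated at r = 0.954 Hba-x and Hbb-bh1 at r = 0.768 and Hbb-y and Hbb-bh1 at r = 0.562, whereas Hbb-bh1 and the 4 adult genes had r from -0.51 to -0.33. Hbb-y and the adult genes had r from 0.34 to 0.52, and Hba-x and the adult genes from 0.08 to 0.27. On the 13 libraries other than the 2 with high embryonic globins, r was 0.862 for Hba-x and Hbb-y, 0.631 for Hba-x and Hbb-bh1 and 0.181 for Hbb-y and Hbb-bh1. With the adult genes it was then -0.79 to -0.73 for Hbb-bh1, 0.31 to 0.40 for Hbb-y and -0.17 to -0.07 for Hba-x. The libraries include both genotypes, so these values are descriptions that hold the genotype difference too.

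Among 8872 other genes, those most like the adult alpha sum by the same measure were Slc4a1 (r = 0.992), the band 3 anion exchanger of the red cell membrane, Alas2 (0.987), the erythroid enzyme that begins heme synthesis, Samd11 (0.980), Slc25a37 (0.978), the mitochondrial iron importer mitoferrin, and Trim10 (0.975). The genes most like the adult beta sum were Slc4a1 (0.986), Fech (0.983), which inserts iron into heme, Pigq (0.977), Acp5 (0.977) and Trim10 (0.976). Mean Slc4a1 was 363 CPM in group 1 wildtype and 86.2 CPM in mutant libraries, and 619, 159 and 125 CPM in the wildtype, mutant and low-yield libraries of group 2. For the embryonic sum of Hba-x, Hbb-y and Hbb-bh1 the closest genes had lower values, with Slc30a1, a zinc exporter, at r = 0.759, Ift172 at 0.747, Rnf8 at 0.732, Pnrc1 at 0.726 and Btg1 at 0.721. On the same 13 libraries these were 0.684, 0.597, 0.864, 0.712 and 0.528.

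Of a list of 30 regulators of globin genes, 3 were called higher and 6 lower in group 1, 1 higher and 3 lower of 29 in the group 2 mutants, 2 higher and 5 lower of 29 in the low-yield mutants, and 5 higher and 10 lower of 30 over both groups. Among all tested genes, 5.79% were called higher and 6.78% lower in group 1, 3.32% and 2.95% in the group 2 mutants, 6.68% and 5.86% in the low-yield mutants, and 9.8% in each direction over both groups. The median log2 fold change of the list was -0.02, -0.03, -0.04 and -0.02, near that of all tested genes. Leaving out 1 library gave 3 to 9 calls in group 1, with 5 without wildtype replicate 1 and 3 without wildtype replicate 2 or mutant replicate 3. In the group 2 mutants it gave 2 to 6, with 2 without wildtype replicates 2 or 3 or mutant replicates 1 or 3, against 7 calls with the replicate number as a block. In the low-yield mutants it gave 3 to 11, with 11 without wildtype replicate 1 and 3 without wildtype replicate 2 or low-yield replicates 1 or 2.

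Klf1, the erythroid factor that binds CACCC elements and activates adult beta globin, was lower in all 3 comparisons. It read 570, 588 and 507 CPM in group 1 wildtype and 391, 396 and 378 CPM in mutant libraries (log2 fold change -0.51, SE 0.07, edgeR adjusted p = 0.000691). Group 2 values of Klf1 were 839.7, 871 and 787 CPM in wildtype, 597, 565 and 629 CPM in mutants and 549.6, 491 and 591 CPM in low-yield libraries. No mutant library reached a wildtype one (log2 fold changes -0.48 and -0.61, SE 0.08 each, edgeR adjusted p = 0.00392 and 0.000358).

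Zbtb7a, a repressor of fetal-type globin expression in adult cells, read 439, 509 and 495 CPM in group 2 wildtype, 339, 355 and 331 CPM in mutants and 311, 313 and 339 CPM in low-yield libraries (log2 fold changes -0.49 and -0.58, SE 0.08 each, edgeR adjusted p = 0.00236 and 0.000325). In group 1 it was called at -0.61 (SE 0.12, edgeR adjusted p = 0.0193), a call lost without wildtype replicates 1 (-0.55) or 2 (-0.55) or mutant replicates 2 (-0.58) or 3 (-0.51). With no low-count filter Zbtb7a was not called in group 1 (edgeR adjusted p = 0.0530). Over both groups it was called at -0.55 (SE 0.08, edgeR adjusted p = 6.5e-05).

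Other regulators were called in fewer comparisons. Klf3, a repressing relative of Klf1, was lower in group 1 (log2 fold change -0.36, SE 0.07, edgeR adjusted p = 0.00975), a call lost without mutant replicate 3 (-0.33). It was not called in the group 2 mutants (-0.11, edgeR adjusted p = 0.653) or the low-yield mutants (-0.04, edgeR adjusted p = 0.85). Over both groups Klf3 was just within the threshold at -0.23 (SE 0.08, edgeR adjusted p = 0.0498), and 5 of 12 fits that left out 1 library kept the call: it was lost without group 1 wildtype replicates 1 (-0.24), 2 (-0.22) or 3 (-0.21), group 1 mutant replicates 2 (-0.19) or 3 (-0.21), group 2 wildtype replicate 1 (-0.24) or group 2 mutant replicate 3 (-0.19). This call was also lost with upper-quartile normalisation, with globin genes left out of the library sizes and in edgeR's legacy quasi-likelihood mode (edgeR adjusted p = 0.0546, 0.0508 and 0.0566). Zfpm1, the GATA1 partner FOG1, was lower in the low-yield mutants (-0.32, SE 0.07, edgeR adjusted p = 0.00925), a call lost without wildtype replicate 2 (-0.27) or low-yield replicates 1 or 2 (-0.31 each). It was not called in group 1 (-0.14, edgeR adjusted p = 0.229) or the group 2 mutants (-0.20, edgeR adjusted p = 0.128). In the group 2 mutants DESeq2 and voom did call it (-0.20 and -0.22, adjusted p = 0.0471 and 0.0224). Over both groups it was called at -0.17 (SE 0.05, edgeR adjusted p = 0.0205), a call lost without group 1 wildtype replicate 3 or group 2 wildtype replicate 2 (-0.15 each). Nfe2, an activator acting at the beta locus control region, was lower in the group 2 mutants (-0.30, SE 0.08, edgeR adjusted p = 0.0351), a call lost whichever library was left out (wildtype replicates 1, 2 and 3, mutant replicates 1, 2 and 3), with values from -0.34 to -0.26. Nor was Nfe2 called there with no low-count filter or in a fit on only the 6 libraries compared (edgeR adjusted p = 0.0725 and 0.0766). In group 1 and the low-yield mutants Nfe2 was not called (-0.19 and -0.22, edgeR adjusted p = 0.133 and 0.0807), though DESeq2 called it in the low-yield mutants (adjusted p = 0.0439). Over both groups it was called at -0.24 (SE 0.05, edgeR adjusted p = 0.00338), and all 12 fits that left out 1 library kept this call.

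The RNA-binding proteins Lin28b and Igf2bp3, both linked to fetal-type gene expression, were called higher in group 1 and the low-yield mutants but not in the group 2 mutants. Lin28b read 123, 114 and 116 CPM in group 1 wildtype and 159, 138 and 147 CPM in mutant libraries, with no overlap (log2 fold change 0.33, SE 0.07, edgeR adjusted p = 0.0101). Its call was lost without wildtype replicate 2 (0.30) or mutant replicate 3 (0.34), and over both groups it stood at 0.30 (SE 0.06, edgeR adjusted p = 0.000931). In the group 2 mutants Lin28b was at 0.27 (SE 0.08, edgeR adjusted p = 0.0712) and in the low-yield mutants at 0.31 (SE 0.08, edgeR adjusted p = 0.0263). The low-yield call was lost without wildtype replicates 1 (0.26) or 2 (0.32) or low-yield replicates 1 (0.34) or 2 (0.24). Igf2bp3 read 50.3, 51.4 and 56.9 CPM in group 1 wildtype and 67.7, 68.2 and 78.7 CPM in mutant libraries, again without overlap (0.44, SE 0.08, edgeR adjusted p = 0.00561). For Igf2bp3 the fold change was 0.39 (SE 0.13, edgeR adjusted p = 0.0834) in the group 2 mutants, which was called without wildtype replicate 1 (0.50), and 0.60 (SE 0.12, edgeR adjusted p = 0.00572) in the low-yield mutants. With the replicate number as a block, Lin28b and Igf2bp3 were both called in the group 2 mutants (edgeR adjusted p = 0.048 and 0.0251), and voom called both too. Over all alternatives tried, the adjusted p ran from 0.0312 to 0.222 for Lin28b and from 0.0226 to 0.291 for Igf2bp3. Nfix, a transcription factor of the nuclear factor I family, was higher in the group 2 mutants (0.42, SE 0.11, edgeR adjusted p = 0.0327), a call lost without wildtype replicates 2 (0.46) or 3 (0.36) or mutant replicates 1 (0.33) or 3 (0.45). It was not called in group 1 (0.28, edgeR adjusted p = 0.171) or the low-yield mutants (0.30, edgeR adjusted p = 0.0852, and 0.0494 with the replicate block). In the low-yield mutants voom called it (0.32, adjusted p = 0.0338). Over both groups Nfix was called at 0.35 (SE 0.08, edgeR adjusted p = 0.00488), and again all 12 fits that left out 1 library kept the call.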

How the data were processed

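RNA from 15 libraries was measured. Per the labels, it was extracted with a micro column kit and sequenced as 151-base read pairs. The deposited values are expected counts per gene. The submitters' processing notes name cutadapt 2.3, STAR 2.7.8a, RSEM 1.3.3 and GRCm38; annotation release and use of strand are not given in the sources used here. All expected counts were whole numbers, and rounding changed 0 values. Rows naming no mouse gene (4 in group 1, 5 in group 2, 5 counts in all) were left out. The test was that of edgeR 4.0.16 (R 4.3.3), after filterByExpr and TMM scaling: robust quasi-likelihood F tests, two-sided, with Benjamini-Hochberg adjustment over all genes tested and a threshold of 0.05. Group 1 was fitted on 6 libraries, group 2 on 9, and both groups on the 12 wildtype and mutant libraries blocked by group of mice. These main fits did not pair same-numbered libraries, so p-values and shares of called genes in group 1 leave out the pairing described below. Members are all 10 listed genes; of the regulators, the 4 called with the smallest p per comparison are named, and of the genes most alike, 5 per sum with a mean CPM of at least 5. The members and lists were chosen with earlier results of these data known. Lengths are those of the longest CCDS transcript per gene in GENCODE M21, and promoters are from RefSeq (GRCm38.p6). A ratio of Ahsp to adult alpha was planned and not computed, so p-values of ratios were adjusted over 4. In group 1, same-numbered mutant and wildtype libraries deviated together (r = 0.441, 0.186 and 0.146 over 14048 genes), and the rule adopted paired them. Differently numbered libraries reached 0.230. In group 2 the rule did not pair them, with 0.241, 0.173 and 0.024 for the mutants, where differently numbered libraries reached 0.116. For the low-yield mutants the values were 0.084, -0.068 and 0.016. These values do not set group 1 clearly apart from the group 2 mutants. Every pair of libraries in a group differed by more than counting noise. Alternatives included other filters, normalisations, DESeq2 1.42.0, voom of limma 3.58.1, a replicate block and leaving out each library. The procedure was tested on simulated data.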

Additional observations from a re-analysis of the deposited data

How the results depend on the processing

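Other filters, normalisations, tools and designs kept the direction of every adult globin gene against wildtype, and so did leaving out each library; counts of calls moved more. For the group 2 mutants, 2 globin genes instead of 4 were called with no low-count filter and 2 when fitted on the 6 libraries compared; the low-yield count was 3 instead of 5 in the fit on 6 libraries. For low-yield against other mutants, DESeq2 and voom each called 1 instead of 0, among 6 and 10 of 15024 genes. Of the 3 summed pairs, the group 2 mutants had 1 called, 0 with no filter, 2 with mean CPM 5 or more, and 3 with DESeq2, voom or the replicate block; the low-yield mutants had 2 called and 1 in the fit on 6 libraries. Leaving out 1 library at a time gave 3 to 4 calls in group 1, 0 to 5 in the group 2 mutants and 3 to 6 in the low-yield mutants, and for the summed pairs 0 to 3 in the mutants and 1 to 3 in the low-yield mutants.

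Signs turned for values of embryonic genes and Klf3, of ratios and of differences between mutant groups or groups of mice, some of them far from 0. Hba-x in the group 2 mutants was -0.21 with voom, and Hbb-y in the low-yield mutants was 0.0015 with upper-quartile normalisation. Leaving out 1 library gave, in group 1, -0.43 to 1.33 for Hbb-bh1 and -1.81 to 0.37 for Hba-x. It gave -0.12 to 0.29 for Hba-x in the group 2 mutants, -0.0041 to 0.70 for Hba-x and -0.77 to 0.25 for Hbb-y in the low-yield mutants, -0.80 to 0.20 for Hba-x over both groups, and -0.45 to 0.013 for the adult alpha sum in low-yield against other mutants. The embryonic share of beta-like RNA ran from -7.00 to 11.6 points in group 1 and from -0.97 to 8.34 over both groups. The log2 ratio of adult alpha to beta in low-yield against other mutants ran from -0.081 to 0.090, and the zeta share over both groups from 3.76 to 5.82 points, with 4.62 (exact sign-flip p = 0.0625) under the replicate block. The paired test of ratios over both groups has too few pairs to say more: its smallest exact sign-flip p was 0.0625 when adjusted over 4 ratios, and the differences are those of the unpaired test. For the regulator Klf3 it gave -0.21 to 0.024 in the group 2 mutants and -0.11 to 0.0046 in the low-yield mutants. For the difference in effect between the groups of mice, Hba-a1 was -0.0055 with voom. Leaving out 1 library gave -0.26 to 0.40 for Hba-a1, -0.44 to 0.19 for Hba-a2, -0.57 to 0.15 for Hbb-bt, -0.61 to 0.11 for Hbq1b, -0.26 to 1.87 for Hba-x, -0.18 to 1.79 for Hbb-y and -0.47 to 1.24 for Hbb-bh1. On 13 libraries, an alternative chosen after seeing the data, Hba-x had r = -0.072, -0.11, -0.17 and -0.096 with Hba-a1, Hba-a2, Hbb-bt and Hbb-bs, where r was above 0 on all 15. The causes were not tested.

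With the replicate number as a block, 2863 of 14048 genes were called in group 1 instead of 1766. For the group 2 mutants DESeq2 called 1452 genes and voom 1928 instead of 942, and for the low-yield mutants voom called 3348 instead of 1884. Against wildtype the block changed no call of a globin gene other than Hbq1b, the alpha sum and the theta sum (edgeR adjusted p = 0.0321) of the group 2 mutants, which it added. Depth set no limit except for Hbq1a and Hbq1b. The ratio with Ahsp and its alternatives were not run.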
